A study of Mus musculus with 10 samples.

Results

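The genes described here govern how neutrophils enter tissue and what they carry in their granules. They were 3 chemokine ligands (Cxcl1, Cxcl2 and Cxcl5), 2 receptors (Cxcr2 and Csf3r) and 4 granule proteins (Mpo, Ltf, Camp and Ngp). Every probe set whose platform annotation held exactly 1 of these 9 gene symbols and no other was taken, which gave 11 of the 45037 probe sets tested. Cxcl1 was read by 3 probe sets and each of the other genes by 1.

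Skin was taken at week 12 from C3H/HeJ mice that had received a graft of alopecic skin from an affected C3H/HeJ mouse, a transfer model of the autoimmune hair loss alopecia areata (AA). The 5 treated mice were given systemic baricitinib, an inhibitor of the Janus kinases JAK1 and JAK2, from the time of grafting through an implanted pump, and the 5 control mice were given vehicle in the same way. All 10 mice shared the strain, which carries a loss-of-function Tlr4 allele, and all 10 had been grafted, so that no level of ungrafted skin is given here. RNA of whole skin was hybridised to Affymetrix mouse arrays, 1 per mouse, and the deposited values are log2 expression values made by robust multi-array averaging (RMA), on which a difference of 1 is a doubling.

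Neutrophils are short-lived white blood cells that leave the blood when their receptor Cxcr2 meets a chemokine of the CXC family bearing an ELR motif, of which Cxcl1, Cxcl2 and Cxcl5 are the mouse representatives most studied in skin. These chemokines are made by macrophages, keratinocytes, fibroblasts and endothelium, and their transcription is driven by NF-kappaB after stimulation by IL-1, TNF or IL-17. The receptor Csf3r responds to granulocyte colony-stimulating factor and carries the cell through its maturation in the bone marrow. Granule proteins are transcribed mostly in marrow precursors, Mpo in the earliest and Ltf, Camp and Ngp in later ones, so that a mature neutrophil in skin holds the proteins with little of their mRNA.

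Cxcl1 and Cxcl2 lie beside each other on mouse chromosome 5, in a row of chemokine genes that runs Cxcl5, Ppbp, Pf4, Cxcl3, Cxcl15, Cxcl1 and Cxcl2, with 0 annotated genes between the last pair. The 250 bases before the start of each are printed because these genes had the widest differences of the ligands and share a match to the NF-kappaB core. Both come from RefSeq, build GRCm38.p6, plus strand, at chr5:90890995-90891244 for Cxcl1 and chr5:90903649-90903898 for Cxcl2, and read 5′ to 3′ with the core in capitals.
Cxcl1: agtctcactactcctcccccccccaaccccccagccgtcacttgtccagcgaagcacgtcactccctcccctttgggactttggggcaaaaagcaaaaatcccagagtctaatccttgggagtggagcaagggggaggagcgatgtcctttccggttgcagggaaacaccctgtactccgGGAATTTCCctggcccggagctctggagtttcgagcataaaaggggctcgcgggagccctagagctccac
Cxcl2: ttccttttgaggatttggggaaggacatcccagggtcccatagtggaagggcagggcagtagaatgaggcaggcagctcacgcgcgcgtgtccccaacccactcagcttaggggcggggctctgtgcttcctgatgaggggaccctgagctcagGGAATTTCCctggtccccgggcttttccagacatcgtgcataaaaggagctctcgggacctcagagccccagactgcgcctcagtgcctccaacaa

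The core GGAATTTCC stood 70 to 62 bases before the start of Cxcl1 and 96 to 88 bases before that of Cxcl2. It lay within gggaatttccctgg, a run of 14 bases that was the longest shared by both windows. GGAATTTCC or its reverse GGAAATTCC occurred in 94 of 32851 RefSeq windows of the same length (0.286%). Within the chemokine row it was found for Cxcl3, Cxcl1 and Cxcl2, and not for Ppbp, Pf4 or Cxcl15. The palindromic STAT element TTCNNNGAA, searched on both strands, occurred in 2306 windows (7.02%) and in 0 of the 8 windows matched to the genes described here. A match of letters is a description of the sequence, and no binding was measured. The window of Cxcl5 was not analysed here.

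The arrays were unequal in quality. Vehicle replicate 5 correlated with the other arrays at r between 0.697 and 0.729 over all probe sets, and the study removed 1 vehicle array that the labels do not name, so all 10 arrays were kept and each was left out in turn. The gap between the 3′ and 5′ ends of the Gapdh and beta-actin controls, which is wider in degraded RNA, had a mean of 1.06 ± 0.08 log2 under baricitinib and of 2.89 ± 1.40 under vehicle (n = 5 each, SD; two-sided exact permutation test, p = 0.0317). Vehicle replicate 4 was alone among the vehicle arrays in having a gap as narrow (1.01) as those of the baricitinib arrays. In limma, a linear model with moderated variances, the share of probe sets under an adjusted p of 0.05 was 0% (Benjamini-Hochberg over all 45037, two-sided) with all 10 arrays and 0% when vehicle replicate 5 was left out. No level is compared between probe sets, and 27 bacterial control probe sets with no mouse target had means between 2.19 and 4.24 log2, a range in which a value cannot be told from background.

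Cxcl2 differed most between the groups. Its values under baricitinib were 3.33, 3.37, 3.32, 3.56 and 6.32 log2 in replicates 1 to 5. In vehicle control skin they were 6.40, 6.37, 6.81, 7.94 and 6.90. The groups did not overlap, although baricitinib replicate 5 lay just under the lowest vehicle array, and the other 4 baricitinib arrays were within the range of the bacterial controls. The mean was 3.98 ± 1.31 under baricitinib and 6.88 ± 0.64 under vehicle (n = 5 each, SD), a difference of -2.90 (SE 0.59, 95% interval -4.22 to -1.59). Because the baricitinib mean was itself in the range of the bacterial controls, the size of this difference is limited by the background and no fold is given.

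The adjusted p of Cxcl2 was 0.221, the smallest value reached by any probe set, so the difference did not pass the threshold. By unadjusted p it stood at rank 105 of 45037. Without baricitinib replicate 5 the difference was -3.49 (SE 0.32) with an adjusted p of 0.0292. Cxcl2 then had the smallest p of the 12 probe sets that passed, 0.0266% of those tested. The array left out held the high value, while its RNA quality gap (1.05) and median correlation (0.98) were like those of its group. The baricitinib arrays that remained were in the range of the bacterial controls, so the SE of this fit is limited by the background. Without vehicle replicate 5 the difference was -2.90 with an adjusted p of 0.0736. In bulk skin, fewer cells that make a transcript and less transcript per cell cannot be told apart.

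**Figure D1:**
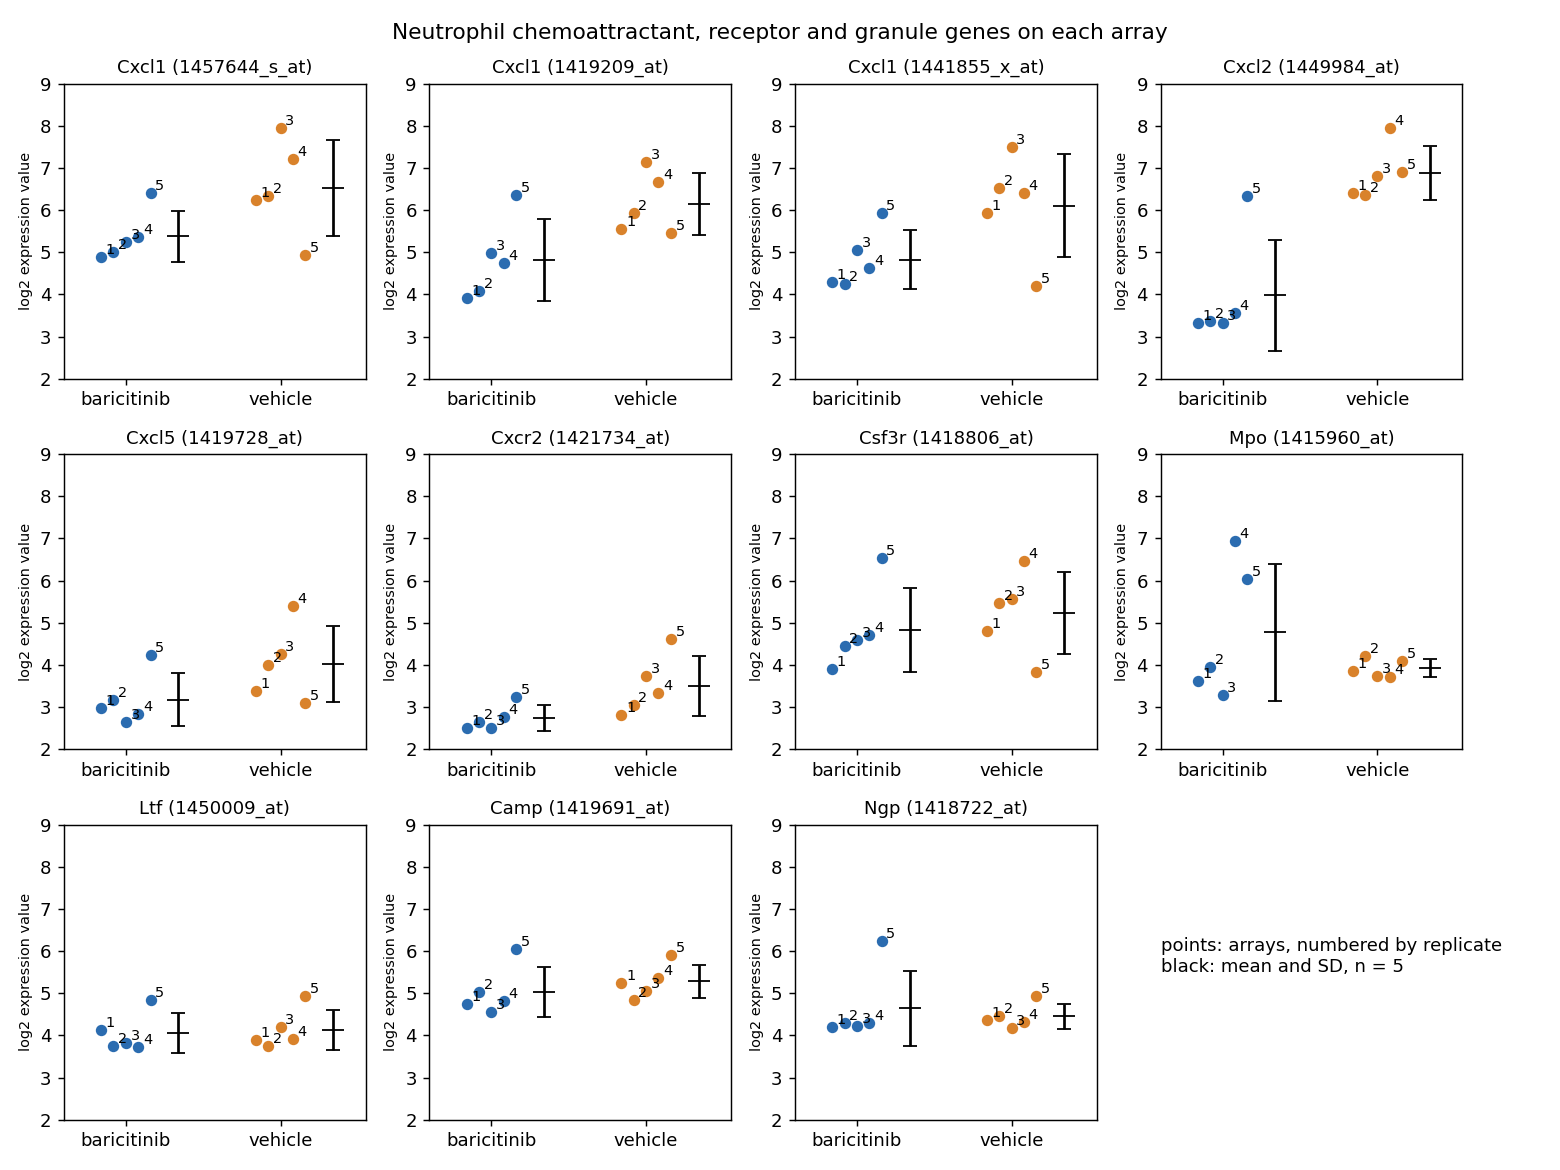
Log2 expression of each of the 11 probe sets on every array, numbered by replicate in a column for each group, with the mean and SD of the group in black (n = 5). Cxcl2 is the one probe set without overlap, with 4 baricitinib arrays at 3.32 to 3.56, baricitinib replicate 5 at 6.32 and the vehicle arrays at 6.37 to 7.94.

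Cxcl1, the other ligand of the pair, was lower on average at all 3 of its probe sets. Probe set 1419209_at gave 3.91, 4.08, 4.99, 4.73 and 6.37 log2 in baricitinib replicates 1 to 5. Vehicle replicates 1 to 5 gave 5.54, 5.92, 7.15, 6.66 and 5.45. Baricitinib replicate 5 lay inside the vehicle range and the other 4 below it. The difference was -1.33 (SE 0.50, 95% interval -2.44 to -0.22), with an adjusted p of 0.286. Baricitinib replicates 1 and 2 were in the range of the bacterial controls, so no fold is given.

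At probe set 1441855_x_at the baricitinib arrays read 4.29, 4.24, 5.05, 4.64 and 5.92 and the vehicle arrays 5.93, 6.51, 7.51, 6.40 and 4.19. Every baricitinib array was here below vehicle replicates 1 to 4, and vehicle replicate 5 was the lowest of all. The values of baricitinib replicate 2 and vehicle replicate 5 were in the range of the bacterial controls. The difference was -1.28 (SE 0.57, 95% interval -2.54 to -0.02, adjusted p = 0.332), and it was -1.76 without vehicle replicate 5 (adjusted p = 0.0737). Probe sets of this kind, and of the _s_at kind, can match more than 1 transcript.

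The third, 1457644_s_at, gave 4.89, 5.0, 5.25, 5.36 and 6.42 under baricitinib. It gave 6.23, 6.34, 7.95, 7.20 and 4.93 under vehicle. The same arrays stood apart as at the other Cxcl1 probe sets, baricitinib replicate 5 high and, as at 1441855_x_at, vehicle replicate 5 low. The difference was -1.15 (SE 0.52, 95% interval -2.31 to 0.02, adjusted p = 0.342), and -1.55 without vehicle replicate 5 (adjusted p = 0.0821). Over the 10 arrays the 3 probe sets correlated with one another at Pearson r of 0.88 to 0.96.

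Cxcl5, which in mice is made largely by epithelium, was low on most arrays. Baricitinib replicates 1 to 5 were at 2.97, 3.17, 2.64, 2.84 and 4.24 log2. Vehicle replicates 1 to 5 were at 3.38, 3.99, 4.25, 5.41 and 3.11. Baricitinib replicate 5 and vehicle replicate 4 were the highest of their groups, as for Cxcl2, and 7 of the 10 values lay within the range of the bacterial controls. The difference was -0.85 (SE 0.45, 95% interval -1.85 to 0.15) and did not pass (adjusted p = 0.382), and it was -0.51 without vehicle replicate 4. Both group means, 3.17 and 4.03, were in that range, so no fold is given.

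Both receptors were lower on average under baricitinib, with overlapping groups. Cxcr2, the receptor through which all 3 ligands act, gave 2.50, 2.64, 2.50, 2.77 and 3.24 log2 under baricitinib. It gave 2.80, 3.04, 3.73, 3.32 and 4.60 under vehicle. All these values except the 4.60 of vehicle replicate 5 fell within the range of the bacterial controls. The difference was -0.77 (SE 0.33, 95% interval -1.50 to -0.04, adjusted p = 0.321), and it was -0.50 without that array (adjusted p = 0.172).

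Csf3r was at 3.89, 4.45, 4.59, 4.71 and 6.53 under baricitinib and at 4.81, 5.47, 5.55, 6.46 and 3.84 under vehicle. Its highest array was baricitinib replicate 5 and its lowest vehicle replicate 5, and the groups overlapped only through these arrays. The other baricitinib arrays reached 4.71 at most and the other vehicle arrays were at 4.81 or above. The difference was -0.39 (SE 0.56, 95% interval -1.65 to 0.86, adjusted p = 0.679). With 1 array left out it ranged from -0.82 (baricitinib replicate 5) to -0.09 (vehicle replicate 4), with -0.74 when vehicle replicate 5 and -0.16 when baricitinib replicate 1 was omitted.

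The granule proteins had no common direction and their groups overlapped. Most values of Mpo, Ltf and Ngp were in or just above the range of the bacterial controls. Mpo, the peroxidase of primary granules, had 3.63, 3.95, 3.30, 6.94 and 6.04 log2 under baricitinib. Vehicle control skin had 3.86, 4.21, 3.74, 3.72 and 4.09. Baricitinib replicates 4 and 5 stood above every vehicle array while the other 3 lay around the vehicle values. All values except those of baricitinib replicates 4 and 5 were in the range of the bacterial controls, so a decrease could not have been seen. The difference was 0.84 (SE 0.66, 95% interval -0.62 to 2.31, adjusted p = 0.489) and was 0.30 without baricitinib replicate 4 and 0.53 without baricitinib replicate 5.

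Ngp, a cathelicidin-related protein of secondary granules, gave 4.19, 4.28, 4.22, 4.29 and 6.24 under baricitinib and 4.37, 4.46, 4.18, 4.31 and 4.95 under vehicle. It was flat on 8 of the 10 arrays, with replicate 5 the highest of either group. Those 8 values were in or just above the range of the bacterial controls, so a decrease could hardly have been seen. The difference was 0.19 (SE 0.39, 95% interval -0.68 to 1.06, adjusted p = 0.774), and it was -0.21 without baricitinib replicate 5.

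Camp, the precursor of the antimicrobial peptide CRAMP, was at 4.74, 5.02, 4.54, 4.82 and 6.04 under baricitinib and at 5.24, 4.84, 5.06, 5.36 and 5.90 under vehicle. Replicate 5 was again the highest of both groups. The difference was -0.25 (SE 0.30, 95% interval -0.92 to 0.43, adjusted p = 0.628), with -0.09 when vehicle replicate 5 and -0.50 when baricitinib replicate 5 was left out. Ltf, the iron-binding lactotransferrin of secondary granules, was at 4.14, 3.76, 3.81, 3.72 and 4.84 against 3.89, 3.74, 4.20, 3.92 and 4.93, a difference of -0.08 (SE 0.29, 95% interval -0.72 to 0.56, adjusted p = 0.871). Outside replicate 5 of either group, all Ltf values were in the range of the bacterial controls. The sign of the Ltf difference turned without vehicle replicate 5 (0.12), as did that of Ngp without baricitinib replicate 5. Camp, Ngp and Ltf all lie on chromosome 9.

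**Figure D2:**
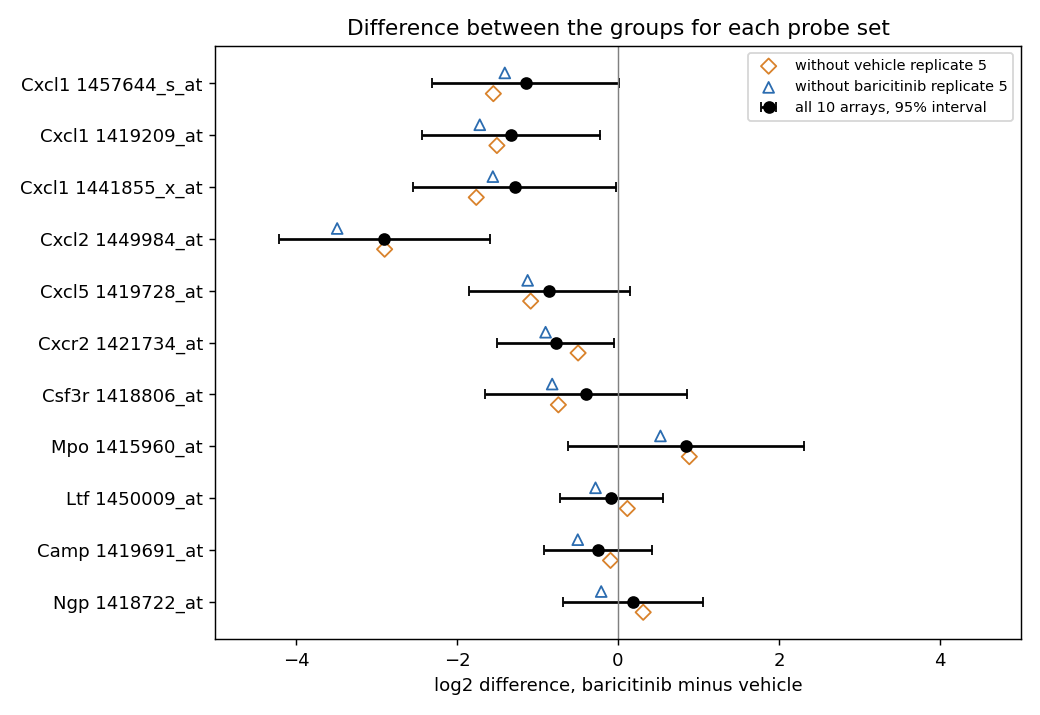
Baricitinib minus vehicle on the log2 scale for the 11 probe sets, with 95% intervals from limma for all 10 arrays and the difference with vehicle replicate 5 or baricitinib replicate 5 left out. Cxcl2 is at -2.90 with all arrays and -3.49 without baricitinib replicate 5, while Ltf (-0.08) and Ngp (0.19) lie near 0 and change sign.

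Counted together, 9 of the 11 probe sets were lower under baricitinib, where 55.4% of all probe sets were. None passed the adjusted threshold. At an unadjusted p under 0.05 there were 4 (2 of Cxcl1, Cxcl2 and Cxcr2) against 14.8% of all probe sets, and 6 without vehicle replicate 5 against 27.9%. Only Cxcl2 did not overlap between groups, as did 2.03% of all probe sets in the same direction, and it was the only one of the 11 with a difference of -2 or lower, a size reached by 0.26%. The median difference of the 11, of which 3 read Cxcl1, was -0.77 and that of all probe sets -0.07. With 1 probe set per gene the median was -0.39, with 7 of 9 genes lower.

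When limma weighted the arrays by quality, with weights of 0.0289 for vehicle replicate 5, 0.498 for vehicle replicate 4, 5.43 for baricitinib replicate 1 and 1.09 to 2.05 for the others, the 3 probe sets of Cxcl1 and that of Cxcl2 passed the adjusted threshold. Their differences were -1.53, -1.66 and -1.91 for 1457644_s_at, 1419209_at and 1441855_x_at and -2.86 for Cxcl2, with adjusted p of 0.0217, 0.0435, 0.0113 and 0.0121. Leaving out vehicle replicate 5 alone gave no such call. In the weighted fit 21.5% of all probe sets passed, so that 4 of 11 is to be read against a high share. The receptors and granule proteins did not pass in it.

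The RNA quality gap moved with the groups, and its part in these differences was not tested beyond the following values. Vehicle replicate 4, whose gap of 1.01 was within the baricitinib range of 0.99 to 1.18, had 7.94 log2 for Cxcl2, 5.41 for Cxcl5 and 6.46 for Csf3r, the highest vehicle value of each. It had 7.20, 6.66 and 6.40 for the Cxcl1 probe sets 1457644_s_at, 1419209_at and 1441855_x_at, above the same probe set in every baricitinib array. With the gap as a covariate the difference of Cxcl2 was -3.30 and those of Cxcl1 were -1.37, -1.40 and -1.56 in the same order. Other genes moved more in that fit, Cxcl5 from -0.85 to -1.64, Csf3r from -0.39 to -1.27 and Cxcr2 from -0.77 to -0.24. Of the granule genes, Ltf turned from -0.08 to 0.32 and Camp went from -0.25 to -0.09. The smallest adjusted p of any probe set was then 1.0.

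**Figure D3:**
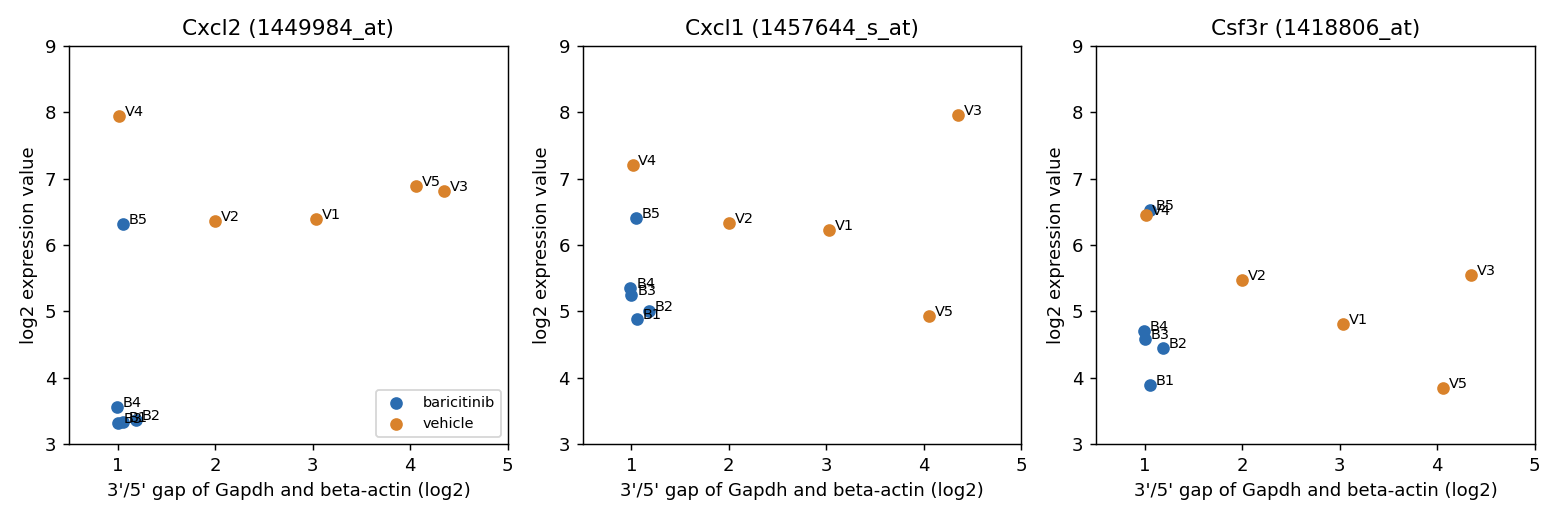
The 3′ minus 5′ gap of the Gapdh and beta-actin control probe sets (log2, horizontal axis) against the log2 expression of Cxcl2, Cxcl1 (1457644_s_at) and Csf3r (vertical axis, a panel each), 1 point per array, coloured by group. Vehicle replicate 4, with a gap of 1.01, lies among the baricitinib arrays horizontally and above all of them vertically for Cxcl2 (7.94) and Cxcl1 (7.20), but not for Csf3r, where it is at 6.46 and baricitinib replicate 5 at 6.53.

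The ligands varied together from array to array. Correlations were taken over the 10 arrays of both groups together, so the difference between the groups enters them. Cxcl2 correlated with the Cxcl1 probe sets 1457644_s_at, 1419209_at and 1441855_x_at at r = 0.71, 0.86 and 0.67, and with Cxcl5 at 0.79. Csf3r correlated with Cxcl5 at 0.86 and with Cxcl2 at 0.59. Camp correlated with Ltf at 0.84 and with Ngp at 0.81, and Ltf with Ngp at 0.75. Pairs of a ligand with Camp, Ltf or Ngp were lower. Camp correlated with Cxcl2 at 0.64, with Cxcl5 at 0.40 and with the Cxcl1 probe sets at 0.18, 0.44 and 0.07. Ltf and Ngp reached at most 0.41 and 0.31, both with Cxcl2. Mpo was apart from the ligands, at r between -0.12 and -0.01.

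Among probe sets with a mean of at least 6 log2, the gene most like Cxcl2 over the 10 arrays was Acod1 (r = 0.97), the itaconate-making enzyme of activated macrophages, followed by the scavenger receptor Msr1 (0.96) and the myeloid receptor Cd300lf (0.96). Those most like Cxcl1 (1457644_s_at) were the myeloid Src-family kinase Fgr (0.97), the complement receptor C3ar1 (0.96) and Degs2 (0.95), an enzyme of ceramide synthesis. Cxcl5 was nearest to the lipase Lipg (0.95), Mitd1 (0.95) and Ccl2 (0.94), and Csf3r to the RNA-activated kinase Eif2ak2 (0.96), Ccl7 (0.95) and the hyaluronan synthase Has2 (0.94). Ccl2 and Ccl7 are chemokines that attract monocytes. Cxcr2 was nearest to Slfn8 (0.96), Resf1 (0.94) and Pdik1l (0.93).

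For the granule proteins the nearest genes were less alike. Mpo reached r = 0.80 with Rab22a, 0.76 with Nr4a3 and 0.74 with Akap13, and Ngp reached 0.75 with Entpd7, 0.74 with Pyy and 0.73 with Elk4. Ltf reached 0.87 with Scn2b, 0.83 with Dclk1 and 0.80 with Samsn1, values that were 0.75, 0.66 and 0.62 without vehicle replicate 5. Camp reached 0.91 with Zwint, 0.85 with Ptprcap and 0.85 with Shq1.

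Cell type markers were read beside these genes. Of the neutrophil markers outside the 9 genes, S100a8 and S100a9, the calprotectin subunits, were at 8.17 to 11.46 and 7.78 to 11.27 log2. S100a8 differed by -0.01 and S100a9 by 0.16 over the 10 arrays, or by -0.55 and -0.45 once vehicle replicate 5 was omitted (adjusted p = 0.263 and 0.310), and both proteins are also made by keratinocytes. Elane was at 3.45 to 4.25 and Cd177 at 3.09 to 3.81 on all arrays, close to the bacterial controls, and Mmp8 was above them only on vehicle replicate 5, at 5.91. The summed level of the 6 markers measured, as a mean log2 value, was 6.33 to 6.79 under baricitinib and 5.69 to 7.11 under vehicle.

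The T cell list, with 6 of 6 genes measured, was at 6.30 to 8.88 under baricitinib, highest in replicate 5, and at 8.89 to 9.54 in vehicle replicates 1 to 4, with vehicle replicate 5 at 6.14. Baricitinib replicate 5 was thus the highest of its group for this list as for all 3 ligands. Within the list Cd8a had the widest difference. It was at 4.22 to 4.93 in baricitinib replicates 1 to 4, 10.02 in replicate 5 and 10.17 to 11.03 in vehicle replicates 1 to 4. Of the 6 genes 5 were lower on average under baricitinib, and Cd3g was higher (0.31). The macrophage and monocyte list, with 8 of 10 genes measured, overlapped between groups, at 9.62 to 10.70 and 8.53 to 10.59. Baricitinib replicate 5 was the highest of all arrays for that list too, at 10.70. The keratinocyte list overlapped too, at 12.25 to 12.89 and 11.87 to 12.70. The adipocyte list (3 of 4 genes measured) read 8.78 to 10.73 under baricitinib and 6.82 to 8.41 under vehicle, the mast cell list (4 of 4) 8.83 to 9.99 and 6.65 to 8.40, and the endothelial list (4 of 4) 7.21 to 8.48 and 6.72 to 7.04. These 3 lists were higher on every baricitinib array than on any vehicle array and so moved with the groups. Baricitinib replicate 5, which had the highest ligand values of its group, had the lowest value of its group in each of the 3. The skeletal muscle list overlapped, at 10.11 to 12.23 and 9.74 to 11.40. The part of these cell types in the values of Cxcl1, Cxcl2 and Cxcl5 was not tested.

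The rest of the neutrophil pathway was read from 7 lists with 90 genes, of which 66 were measured, using for each gene its brightest probe set on average. None passed the adjusted threshold with all arrays, and the lowest adjusted p was 0.221. There were 48 genes lower under baricitinib, 72.7% against 49.7% of all named genes. At an unadjusted p under 0.05, 11 were lower (16.7% against 6.22%) and 3 higher (4.55% against 9.81%). The groups did not overlap for 2 lower genes (3.03% against 1.82%). With array quality weights 20 genes passed as lower (30.3% against 13.2%) and 2 as higher (3.03% against 9.83%). Genes with near-identical copies in the genome, among them the stefins and Chil3, may share signal with them.

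Of 4 other CXC chemokines listed beside the members, 2 were lower, with a median of -0.01. All values of Cxcl15 and Ppbp and 8 of the 10 of Cxcl17 lay within the range of the bacterial controls, so that a decrease could not have been seen for them. Cxcl3, which lies in the same row on chromosome 5 and carries the same NF-kappaB core, was at 2.51, 2.42, 2.47, 2.47 and 6.56 under baricitinib and at 3.90, 3.77, 3.29, 5.30 and 2.71 under vehicle. Like Cxcl2 it was low on 4 baricitinib arrays and high on replicate 5, which here was the highest of all 10 arrays, and the 4 low values were in the range of the bacterial controls. Its difference was -0.51 (SE 0.83, adjusted p = 0.717), and -1.33 without baricitinib replicate 5 (adjusted p = 0.308). Cxcl15 and Cxcl17 were at 0.07 and -0.09.

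All 8 cytokines measured of the 12 listed were lower on average, where 49.7% of all named genes were. Their median was -0.48 (-0.82 without vehicle replicate 5), and 2 of them had an unadjusted p under 0.05. All values of Il6 (2.69 to 3.88) and both group means of Csf3 (3.77 and 3.98) were in the range of the bacterial controls. The differences of these genes cannot be told from background. Il17a, which raises CXC chemokine production in skin, was at 3.30, 3.28, 3.39, 3.27 and 3.17 under baricitinib and at 3.66, 3.91, 3.94, 3.68 and 3.52 under vehicle. These groups did not overlap, but all values were in the range of the bacterial controls, and the difference was -0.46 (SE 0.14, adjusted p = 0.236). Il23a, a subunit of the cytokine that maintains IL-17 producing T cells, had a difference of -0.98 (adjusted p = 0.298), and Csf2, encoding GM-CSF, of -0.84 (adjusted p = 0.344).

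Of 14 other neutrophil receptors measured, 10 were lower, and the differences went both ways. Clec4d, a lectin of myeloid cells that binds fungal and mycobacterial glycolipids, was at 5.28, 5.84, 5.85, 6.79 and 7.91 under baricitinib and at 8.66, 8.49, 8.50, 8.67 and 7.49 under vehicle, a difference of -2.03 (SE 0.47, adjusted p = 0.221). Trem1, an activating receptor of neutrophils and monocytes, did not overlap, at 3.33 to 3.60 against 3.69 to 4.35 (difference -0.51, adjusted p = 0.246), although 9 of its 10 values were in the range of the bacterial controls. Il1r2, the decoy receptor for IL-1, was higher, at 9.52 to 10.91 against 8.85 to 9.70 (difference 1.07, adjusted p = 0.230).

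Of the other granule genes, 3 of 5 primary and 9 of 14 secondary and tertiary genes were lower, with medians of -0.05 and -0.15. Without vehicle replicate 5 the medians were -0.27 and -0.24, with 3 and 12 genes lower. Elane and Prtn3, the serine proteases stored with Mpo, had differences of 0.23 and 0.36, and Serpinb1a, an inhibitor of those proteases, one of -1.07 (SE 0.32, adjusted p = 0.237). Chil3, a chitinase-like protein of neutrophils and macrophages, read 6.12 on baricitinib replicate 5, 2.61 to 2.90 on the other arrays of that group and 3.87 to 8.41 under vehicle. It thus had the same high array as Cxcl2 and Cxcl3, and its difference was -2.39 (SE 0.91, adjusted p = 0.289). The baricitinib mean of Chil3, 3.45, was in the range of the bacterial controls, so the size of this difference is limited by the background. Haptoglobin, Hp, was higher at 2.28 (SE 0.93, adjusted p = 0.309; 1.45 without vehicle replicate 5), and Mmp8, the neutrophil collagenase, was lower at -0.68 (adjusted p = 0.383; -0.30 without the same array).

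Among cytosol and surface markers, 11 of 15 measured were lower, with a median of -0.40 (-0.97 without vehicle replicate 5). Stfa3, a cysteine protease inhibitor of the stefin A family, was at 7.93, 8.12, 7.99, 6.75 and 12.52 under baricitinib and at 12.59, 12.60, 13.56, 12.83 and 10.26 under vehicle. The 4 low baricitinib arrays and the high replicate 5 were those of Cxcl2, and the difference was -3.71 (SE 1.02, adjusted p = 0.227). Stfa2l1 had a difference of -2.07 (adjusted p = 0.292) and Fcgr4, an activating Fc receptor, of -1.81 (adjusted p = 0.393).

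Among antimicrobial and alarm genes of skin, 8 of 10 were lower, with a median of -0.42 (-0.81 without vehicle replicate 5). Defb3, a beta-defensin of keratinocytes, was at 5.54, 5.17, 4.04, 4.28 and 6.54 against 7.46, 8.19, 8.99, 7.48 and 6.45, a difference of -2.60 (SE 0.56, adjusted p = 0.221). Its groups overlapped only through both replicates 5. Wfdc12 had a difference of -0.71 and Defb1, a beta-defensin made constitutively, of 0.28, with adjusted p of 0.465 and 0.497.

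**Figure D4:**
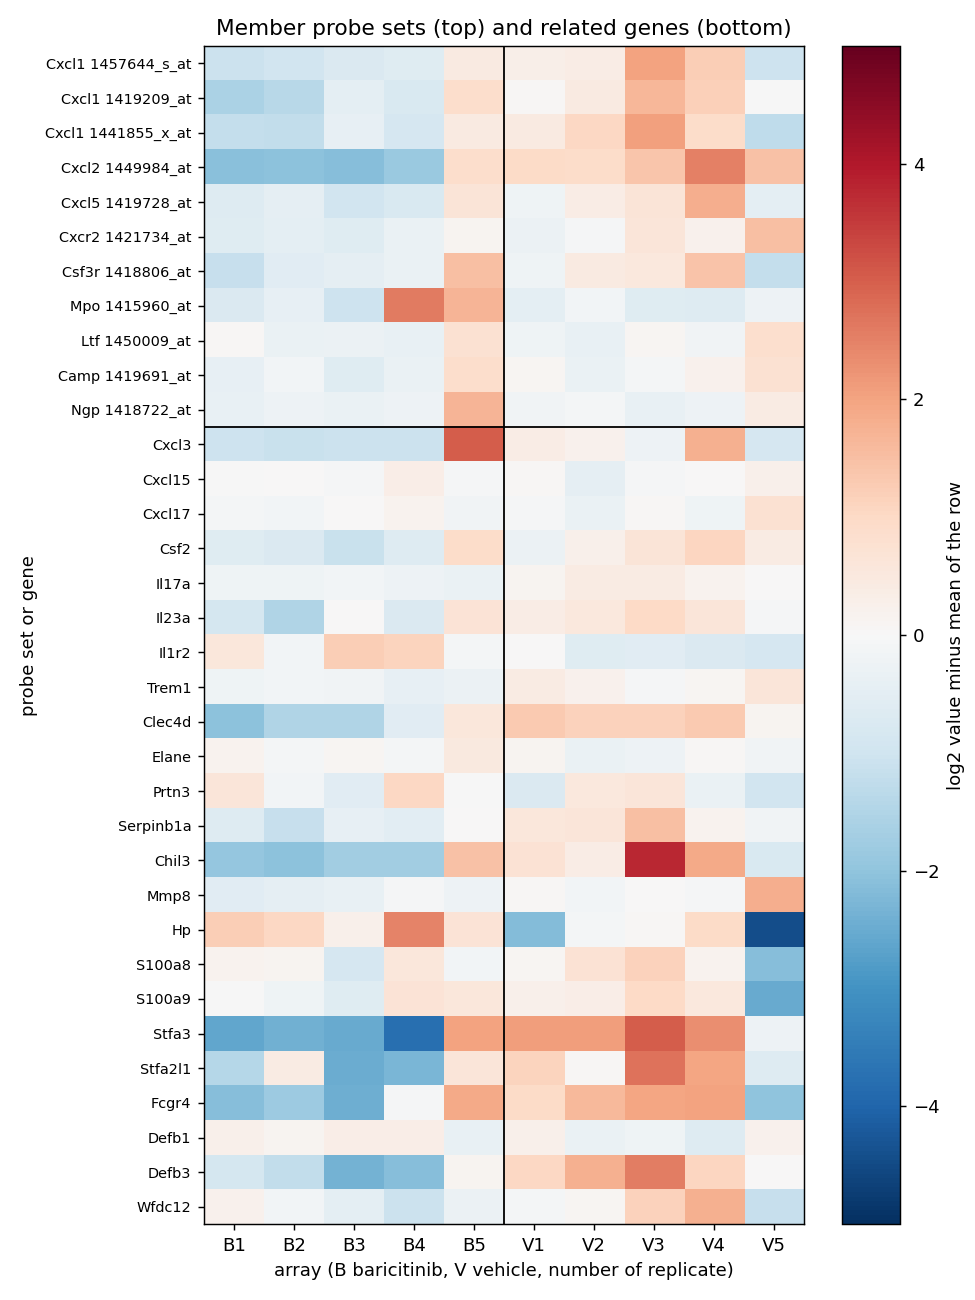
Log2 value minus the mean of the row on each array (colour, blue below and red above) for the 11 probe sets and for the related genes named by rule, with S100a8 and S100a9. In the rows of Cxcl2, Cxcl3, Chil3 and Stfa3 the baricitinib arrays 1 to 4 are blue and baricitinib replicate 5 is red.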

How the data were processed

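RNA of skin from 10 C3H/HeJ mice was amplified with the NuGen Ovation V2 system, labelled with Encore Biotin and hybridised to Affymetrix mouse genome arrays. The deposited log2 values were made by the authors with RMA on this experiment alone (version not given in the sources used here). The means of the arrays were near-equal, at 6.43 to 6.45 log2. Vehicle replicate 5 had a narrower spread over all probe sets, with an SD of 2.28 against 2.71 to 2.79 on the other arrays. Of 45101 probe sets 64 controls were set aside. In the platform annotation 34945 had 1 gene symbol, 932 several and 9160 none, and those with 1 covered 18193 genes. Groups and replicate numbers came from the sample titles, and each mouse was 1 sample.

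Baricitinib and vehicle were compared with limma 3.58.1 in R 4.3.3 (lmFit and eBayes, no filter, Benjamini-Hochberg over 45037 probe sets, threshold 0.05), and the calculation was tested on simulated data. The number of mice limits the precision. The members and lists were chosen with earlier results of these data known, so counts over them are descriptions. Every member probe set was reported, with up to 3 genes of each of 7 lists by smallest p, any gene of a list whose groups did not overlap, and the 3 genes most like each member. S100a8, S100a9, Elane, Cd177 and Mmp8 were given as cell type markers. The alternatives were each array left out, the replicate number as a block, a filter at a mean of 5 log2, centring, quantile normalisation, array weights, trend and robust variances, the 3′ to 5′ gap as a covariate, removal of _x_at and _s_at probe sets, and 1 probe set per gene. Promoter windows were RefSeq's, GRCm38.p6, without the transcribed bases.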

Additional observations from a re-analysis of the deposited data

Results flagged for a closer look

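The highest or lowest array was compared with the others of its group for each of the 11 probe sets in both groups, 22 checks in all, of which chance marks about 1 in 20. There were 2 values far from the others, both on baricitinib replicate 5. Cxcl2 was at 6.32 log2 on that array against 3.32 to 3.56 on the other 4 baricitinib arrays. Ngp was at 6.24 against 4.19 to 4.29. For both genes the other 4 baricitinib arrays were in or just above the range of the bacterial controls. The rate of 1 in 20 may not hold for values so limited by the background. Vehicle replicate 5 gave 0 such values. Over all probe sets baricitinib replicate 5 correlated most with vehicle replicate 4 (r = 0.994), the highest correlation of any pair of arrays. The cause of this likeness was not tested.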

How the results depend on the processing

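With all arrays 0 probe sets passed the adjusted threshold and 6680 had an unadjusted p under 0.05. Leaving out 1 array gave 0 to 848 adjusted calls, 848 when vehicle replicate 4 and 12 when baricitinib replicate 5 was omitted, and array weights gave 9676. Of the 11 member probe sets 0 to 1 passed with 1 array left out and 4 with array weights. Of the related genes 22 passed with array weights. The difference of Ltf turned sign on quantile normalisation (0.0875), with array weights (0.19) and with the RNA quality gap as covariate (0.32), and ran from -0.28 to 0.12 with 1 array left out. That of Ngp ran from -0.21 to 0.31. The difference of the RNA quality gap between groups ran from -2.30 to -1.47, and its p was above the threshold (0.0714 to 0.0794) whenever 1 baricitinib array was omitted. The causes were not tested. Only 6 member probe sets had a mean of at least 5 log2. Of 191 alternative values of single member probe sets 180 kept direction and side of the threshold. Calls were possible only without vehicle replicate 4, without baricitinib replicate 5 or with array weights. In the other settings 0 probe sets passed, so there the side of the threshold could not change.

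The shared replicate numbers did not pair the arrays (correlations of deviations from -0.23 to 0.09, own number best for replicate 2 alone), and the fit with the replicate block gave 0 adjusted and 5441 unadjusted calls.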
